A study of Arabidopsis thaliana with 36 samples.

Results

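The transcripts described here are those of the plastid and mitochondrial genomes, read on an oligonucleotide array that gathers their probe sets under 150 consecutive identifier numbers. All 150 probe sets of that block were taken, out of 22746 tested, and none was chosen by its values. By the annotation of the array, 77 report plastid genes, under 76 different symbols because rps12 has 2 probe sets, and 13 carry symbols of mitochondrial genes. Mitochondrial genes, in the block and outside it, were assigned to their genome by gene symbol alone. The name of the block therefore holds only in part. Another 10 name ordinary nuclear loci of chromosome 2, 5 name chromosome 2 loci beginning AT2G07, and 45 list no gene and are given by their identifier. Of the 45, 25 had a mean below 3 on the log2 scale in every group, as did 30 of the 150 in all. No plastid probe set lies outside the block, but 11 mitochondrial ones do.

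Plastid and mitochondrial genomes are the remnants of the genomes of engulfed bacteria. The plastid genome encodes core subunits of the photosystems, the cytochrome b6f complex, ATP synthase, the NDH complex (a relative of respiratory complex I) and the large subunit of Rubisco, together with part of the ribosome and RNA polymerase that express them. The mitochondrial genome encodes a few subunits of the respiratory chain and proteins that mature cytochrome c. Many of these proteins carry iron as heme or iron-sulfur clusters, and their partners are made from nuclear genes. A stretch of nuclear chromosome 2 is known to hold inserted mitochondrial DNA, so a reading of a mitochondrial transcript and one of its nuclear copy cannot be told apart here.

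The natural inbred lines Kas-1 (Kas) and Tsu-1 (Tsu) of Arabidopsis thaliana were compared, with no transgene or mutation named in the labels. Plants 24 d old, grown in hydroponics on rockwool, received complete medium for 24 h (iron as Fe(III)-EDDHA at 50 µM) or medium lacking iron for 24 h or 48 h. Roots and shoots of each ecotype and treatment gave 12 groups of 3 arrays, 36 arrays in all, each hybridised with biotin-labelled total RNA. How that RNA was primed for labelling is not stated, so the bearing of priming on organelle readings could not be assessed. Separate cultures are not stated for the 3 arrays of any group. The p-values therefore describe the spread among the arrays as given, and that spread may be technical. Complete medium was sampled at 24 h alone: the 24 h and 48 h comparisons share those arrays, and at 48 h the lack of iron and 24 h of further growth cannot be told apart. The titles say roots or shoots, whereas rosettes are the stated source of RNA in every extraction protocol. The mean of 6 nuclear photosystem probe sets lay between 11.74 and 11.97 on the 18 shoot arrays and between 3.69 and 4.87 on the 18 root arrays. Of 31 genes on that list 6 were measured: PSAE1, PSAN, PSBW, PSBY, LHCB4.1 and ATPC1, the last a subunit of plastid ATP synthase. The root markers EXPA7, EXPA18 and PYK10 averaged 7.601 to 8.644 in roots and 4.00 to 4.68 in shoots, so the tissue names in the titles held.

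Some arrays did not sit at the level of their ecotype. An index was built on 82 probe sets outside the block that list no organelle gene. They were chosen because Kas and Tsu differed on them by at least 2 (log2) at 48 h, in the same direction in both tissues. The index was scaled on the same 4 groups at 48 h so that Tsu is 0 and Kas is 1, which fixes the means of those groups. It placed 11 arrays more than 0.25 from their label. They were all 3 arrays of Tsu roots at 24 h without iron (mean 0.581 ± 0.095, SD, n = 3), all 3 of Tsu shoots at 24 h without iron (0.540 ± 0.053), replicates 1 and 3 of Tsu roots with iron, replicates 2 and 3 of Kas roots with iron, and replicate 1 of Kas roots at 24 h without iron. The 25S ribosomal RNA control also moved between groups. It read 6.08 ± 0.85 in Kas roots at 48 h, against 9.62 to 11.01 as the mean of the other root groups, and 5.549 to 7.196 in the 3 Tsu shoot groups, against 9.03 to 9.80 in the 3 Kas shoot groups. Both measures are given again below where they bear on a comparison.

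**Figure D1:**
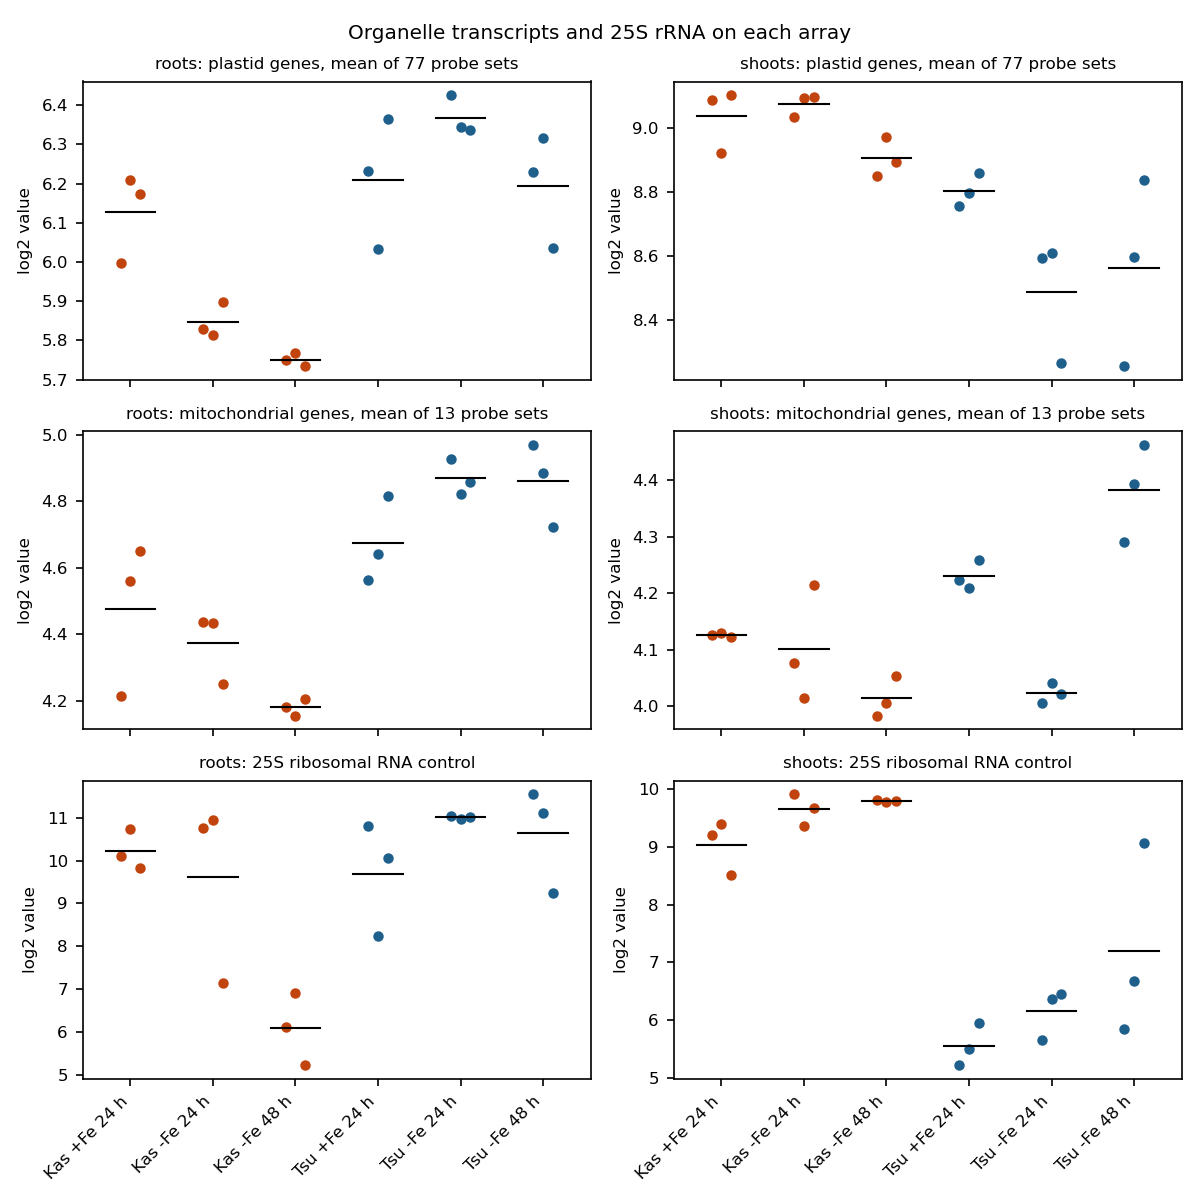
Mean log2 value on each array of the 77 plastid probe sets, the 13 mitochondrial probe sets and the 25S ribosomal RNA control, for roots and shoots. Points are arrays (3 per group), black lines are group means, and Kas is orange and Tsu blue. The plastid mean was 5.73 to 6.43 in roots and 8.26 to 9.10 in shoots, and the 25S control was low in Kas roots at 48 h and in Tsu shoots.

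Plastid transcripts separated the tissues. With iron, 76 of the 77 plastid probe sets were higher in Kas shoots than in Kas roots and 74 of 77 in Tsu, and 0 were lower, at an adjusted p below 0.05 (limma with Benjamini-Hochberg adjustment over all 22746 probe sets). Over all probe sets 25.2% were higher and 30.4% lower in Kas shoots, and 25.1% higher and 31.7% lower in Tsu shoots. The median plastid difference was 2.91 on the log2 scale in Kas and 2.55 in Tsu, beside 0.03 and -0.05 over all probe sets. In whole tissue, fewer cells of a type and less RNA per cell cannot be told apart. The largest plastid difference in Kas was that of psaA, a reaction-centre protein of photosystem I, which read 3.88, 5.18 and 3.66 in Kas roots and 10.79, 10.51 and 10.67 in Kas shoots. These ranges lie far apart, and the difference was 6.42 (SE 0.35, adjusted p = 7.28e-17) in Kas and 5.24 (SE 0.35, adjusted p = 1.26e-14) in Tsu. Among photosystem II genes, psbA, the D1 protein of the reaction centre, read 3.07, 3.42 and 3.43 in Kas roots and 8.70, 8.60 and 8.87 in Kas shoots, a difference of 5.41 (SE 0.26, adjusted p = 2.68e-18). Its Tsu difference was 5.21 (SE 0.26). Other large differences in Kas were those of psbB (5.63), a core antenna protein of photosystem II, and psbD (5.50), its D2 protein, with 4.96 and 4.61 in Tsu.

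Functional groups of plastid genes had different medians of the shoot minus root difference. In Kas the median was 3.89 over 6 ATP synthase probe sets, 3.60 over 15 of photosystem II, 3.42 over 7 of photosystem I and its assembly factors ycf3 and ycf4, 3.12 over 11 of the NDH complex and 2.56 over 7 of cytochrome b6f and cytochrome c assembly. It was 2.18 over 20 ribosomal probe sets, 2.03 over rbcL, accD, clpP and cemA, 1.82 over the 4 RNA polymerase subunits and matK, an intron maturase, and 1.04 over ycf1 and ycf2. Taken as 2 classes, the 46 photosynthesis probe sets had a median of 3.29 in Kas and 3.14 in Tsu, and the 25 for transcription and translation 1.95 and 1.69. Whether the classes differ was not tested. The brightness of the reading also moved with the difference, and its part was not tested: the median Kas difference was 3.26 for the 27 plastid probe sets below 5 in roots, 3.06 for the 31 from 5 to 8 and 1.95 for the 19 at 8 and above. The root level is itself subtracted in that difference, so brightness and difference are not independent.

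Within groups the spread was wide. The 11 NDH probe sets ran from 0.37 for ndhF to 6.05 for ndhJ in Kas. The neighbours ndhJ, ndhK and ndhC, which follow each other in the plastid gene order, gave 6.05, 5.92 and 2.80 in Kas and 6.27, 6.12 and 4.00 in Tsu. In Kas roots ndhJ read 3.26, 3.34 and 3.38 and in Kas shoots 9.38, 9.17 and 9.58. The smallest differences among called plastid probe sets in Kas belonged to petD (0.46), a cytochrome b6f subunit, and ndhB (0.49), and these probe sets were dim in both tissues. For petD the values were 2.47, 2.54 and 2.58 in Kas roots and 2.97, 2.79 and 3.21 in Kas shoots. The probe sets that missed the threshold were ndhF in both ecotypes (0.37, adjusted p = 0.0607, in Kas), and accD (0.29), a subunit of acetyl-CoA carboxylase, and ycf2 (0.30) in Tsu. Leaving out the arrays between the ecotypes, which leaves 1 root array with iron in each ecotype, gave 75 plastid probe sets higher in Kas and 73 in Tsu.

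**Figure D2:**
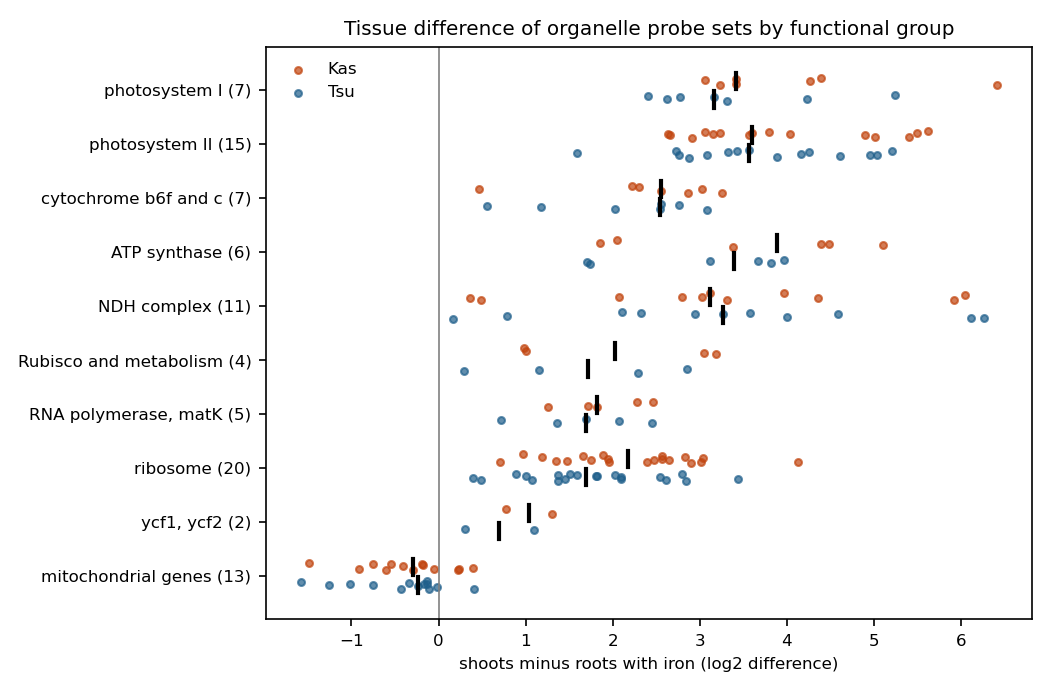
Shoots minus roots with iron (log2 difference) for 77 plastid probe sets in 9 functional groups and for 13 mitochondrial probe sets, with the number of probe sets in brackets. Points are probe sets, black bars are medians, and Kas is orange and Tsu blue; every plastid point lies above 0, while the mitochondrial medians are -0.29 in Kas and -0.23 in Tsu.

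Of the 13 mitochondrial probe sets 6 were lower and 1 higher in shoots in each ecotype. Together that is 53.8% of them, close to the share of all probe sets called in either direction (25.2% higher and 30.4% lower in Kas, 25.1% and 31.7% in Tsu). Among probe sets of 1 gene the largest was ccb382, which takes part in cytochrome c maturation and read 9.87, 10.05 and 9.90 in Kas roots and 9.02, 8.88 and 9.20 in Kas shoots. Its values do not overlap, and the difference was -0.91 (SE 0.15, adjusted p = 2.67e-06) in Kas and -1.58 (SE 0.15, adjusted p = 3.84e-11) in Tsu. For nad4, a subunit of respiratory complex I, the difference was -0.75 (SE 0.23, adjusted p = 0.00645) in Kas and -1.02 (SE 0.23, adjusted p = 3.37e-04) in Tsu. For cox2, a subunit of cytochrome c oxidase, it was -0.54 (SE 0.21, adjusted p = 0.0278) and -0.75 (SE 0.21, adjusted p = 0.0025). A probe set that lists both rps3 and rpl16, ribosomal genes, gave -1.49 and -1.26. The members higher in shoots were nad7 in Kas (0.40) and ccb203 in Tsu (0.40). On the nuclear respiratory list, 5 of 6 probe sets were lower in shoots in each ecotype (medians -0.96 and -0.92). The 6 report 5 genes, since SDH2-1 has 2 probe sets, and a link with the mitochondrial genes was not tested. For cox2 the Tsu call was lost without replicate 2 of Tsu shoots with iron (adjusted p = 0.0557). The Kas count rests on the arrays between the ecotypes: without them 2 were lower and 2 higher, nad4 had a difference of -0.31 (adjusted p = 0.322) and the median was -0.03, while Tsu kept 6 lower and 0 higher. Without replicate 3 of Kas roots with iron nad4 had an adjusted p = 0.174. Of the 11 mitochondrial probe sets outside the block, 0 were lower and 1 higher in Kas shoots, and 3 lower and 0 higher in Tsu shoots.

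Nuclear loci within the block differed between the tissues in both directions. AT2G26500 was 7.26 higher in Kas shoots and 7.44 in Tsu, more than any plastid probe set. YAB5, a YABBY transcription factor of lateral organs, was 3.32 and 3.66 higher. AT2G26390 was lower in shoots in both ecotypes (-2.31 and -2.48). The probe set 245036_at, which lists no gene, had the largest difference in that direction, -4.13 in Kas and -4.18 in Tsu.

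The ecotypes were set against each other at 48 h without iron, with the groups on which the index was scaled, and with iron. In roots at 48 h, 49 of the 150 probe sets were called, 6 higher and 43 lower in Kas, where 9.05% of all probe sets were higher and 15.7% lower. Of the 77 plastid probe sets 30 were lower and 1 higher, with a median of -0.49 beside -0.04 over all probe sets. Of 13 mitochondrial ones 7 were lower and 1 higher, with a median of -0.67. Of the 6 nuclear photosystem probe sets 3 were higher and 0 lower (median 0.39, range -0.61 to 1.60). In shoots at 48 h, 54 were called, 39 higher and 15 lower in Kas, where 13.4% of all probe sets were higher and 23.2% lower. There 31 plastid probe sets were higher and 2 lower (median 0.33, beside -0.09 over all), while 5 of 13 mitochondrial ones were lower and 1 higher (median -0.26). Of the nuclear photosystem probe sets 0 were higher and 1, that of the ATP synthase gene ATPC1, lower there (median -0.0096). Plastid transcripts thus read lower in Kas than in Tsu in roots and higher in shoots, and whether the 2 tissues differ was not tested. The 25S control ran the same way, at 6.08 ± 0.85 in Kas and 10.64 ± 1.22 in Tsu roots and at 9.80 ± 0.01 in Kas and 7.196 ± 1.676 in Tsu shoots (SD, n = 3), and its part in the result was not tested.

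At 48 h 19 probe sets were called in both tissues, 10 of them in opposite directions and 9 in the same direction, which is 18.4% of the root calls and 16.7% of the shoot calls. Over all probe sets 2998 were called in both tissues, 2475 in the same direction and 523 in opposite ones. Among plastid genes, 9 of 11 such calls were opposite. The set held atpF and atpH of ATP synthase, petG of cytochrome b6f, ndhA, rpoC2 of the RNA polymerase and the ribosomal genes rps7, rps12, rps15 and rpl16. For atpF the root values were 4.76, 4.30 and 4.51 in Kas and 5.72, 6.28 and 5.50 in Tsu, a difference of -1.31 (SE 0.33, adjusted p = 0.00781). The shoot values of atpF were 10.21, 10.23 and 9.73 and 8.48, 9.05 and 10.11, a difference of 0.85 (SE 0.30, adjusted p = 0.033). Root values do not overlap between the ecotypes, while in shoots replicate 3 of Tsu lies within the Kas range. That Tsu array also had the highest 25S value of its group, 9.07 against 5.84 and 6.67, and the highest plastid mean, 8.84 against 8.26 and 8.60. Without it 40 plastid probe sets were higher and 2 lower in Kas shoots.

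Among plastid genes 2 went the same way in both tissues. The gene ccsA, whose product attaches heme to cytochrome c in plastids, was higher in Kas. In roots at 48 h it read 8.63, 8.37 and 8.36 in Kas and 7.16, 7.84 and 7.05 in Tsu, a difference of 1.11 (SE 0.24, adjusted p = 0.00281). In shoots it read 11.69, 11.70 and 11.79 and 10.20, 10.35 and 11.14, a difference of 1.16 (SE 0.16, adjusted p = 9.78e-06). Neither pair of ranges overlaps. The gene rps4, a ribosomal protein, was lower in Kas, with log2 differences of -0.85 (SE 0.25, adjusted p = 0.0191) in roots and -0.85 (SE 0.13, adjusted p = 3.27e-05) in shoots.

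**Figure D3:**
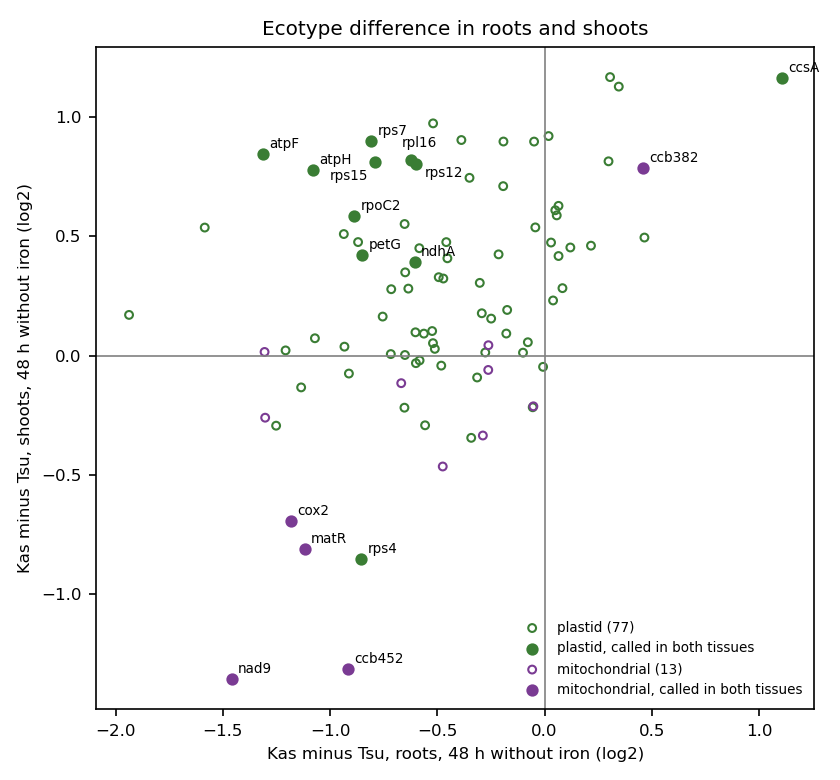
Kas minus Tsu at 48 h without iron in roots (horizontal axis) and shoots (vertical axis), as log2 differences, for 77 plastid (green) and 13 mitochondrial (purple) probe sets. Filled and named points had an adjusted p below 0.05 in both tissues: 9 of the 11 plastid ones lie in the upper left, lower in Kas roots and higher in Kas shoots, and the 5 mitochondrial ones had the same direction in both.

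Each of the 5 mitochondrial probe sets called in both tissues kept 1 direction: nad9, cox2, ccb452 and matR were lower in Kas and ccb382 was higher. For nad9, a complex I subunit, the shoot values were 2.78, 2.88 and 2.61 in Kas and 4.38, 4.02 and 3.94 in Tsu, a difference of -1.36 (SE 0.14, adjusted p = 2.91e-07), and the root difference was -1.46 (SE 0.30, adjusted p = 0.00213). For ccb452, of cytochrome c maturation, the difference was -1.31 (SE 0.16, adjusted p = 1.28e-06) in shoots and -0.91 (SE 0.17, adjusted p = 0.00107) in roots. The maturase-related gene matR read 2.37, 2.48 and 2.43 in Kas roots and 3.65, 3.28 and 3.70 in Tsu roots, a difference of -1.12 (SE 0.16, adjusted p = 1.33e-04), and the shoot difference was -0.81 (SE 0.16, adjusted p = 3.60e-04). None of these ranges overlaps. The Kas readings of nad9 in shoots and of matR in both tissues lay below 3, a level treated as dim here, so the size of these differences is uncertain. For cox2 the differences were -1.18 in roots and -0.70 in shoots, and for ccb382 they were 0.46 (adjusted p = 0.049) and 0.79. The root call of ccb382 was lost when any of 5 of the 6 arrays was left out (adjusted p = 0.253 without replicate 3 of Tsu).

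The largest root differences at 48 h were those of petA, cytochrome f, which carries heme, at -1.94 (SE 0.32, adjusted p = 3.94e-04), and of ycf4, an assembly factor of photosystem I, at -1.58 (SE 0.26, adjusted p = 3.79e-04). Root values of petA were 5.47, 5.41 and 6.20 in Kas and 7.73, 7.71 and 7.46 in Tsu, without overlap. In shoots the same genes gave 0.17 (adjusted p = 0.48) and 0.54 (adjusted p = 0.148), and neither passed the test. Over all probe sets 9.05% were higher and 15.7% lower in Kas roots, and 13.4% higher and 23.2% lower in Kas shoots. Photosystem II had 8 of 15 probe sets lower in Kas roots, with psbB at -1.25 and psbH at -1.14. In Kas shoots 2 of the 15 were higher and 1 lower, neither above the share over all probe sets. The ribosome had 8 of 20 lower in Kas roots, and 13 higher and 1 lower in Kas shoots. In the NDH complex 3 of 11 were lower in Kas roots and 4 higher in Kas shoots, and ndhG had the smallest p of the root list, with 2.90, 2.60 and 2.75 in Kas and 3.76, 3.95 and 3.75 in Tsu and a difference of -1.07 (SE 0.14, adjusted p = 7.58e-05). Its Kas readings were below 3 and so dim. The largest shoot differences among plastid genes were those of rps12, ccsA and rps16 (1.13). For rps12 the 2 probe sets gave 1.17 and 0.80, and on the first the values were 8.02, 8.12 and 8.20 in Kas and 6.01, 7.11 and 7.73 in Tsu, with the Tsu arrays widely spread.

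With iron fewer probe sets were called in either tissue. In shoots 46 probe sets were called, 31 higher and 15 lower in Kas, where 13.2% of all probe sets were higher and 20.0% lower. Plastid genes gave 18 higher and 5 lower, and 31 probe sets of the block, all in the same direction, were called at both times, which is 67.4% of the calls with iron and 57.4% of those at 48 h. Over all probe sets the shares were 65.7% and 59.5%, so the overlap within the block is that of the array as a whole. The 2 comparisons use different arrays. In shoots with iron the 25S control read 9.03 ± 0.46 in Kas and 5.55 ± 0.37 in Tsu (SD, n = 3), and its part in these differences was not tested. For nad9 the shoot difference with iron was -0.90 (SE 0.14, adjusted p = 5.58e-05), for ccsA 1.18 (SE 0.16, adjusted p = 8.87e-06) and for rps4 -1.003 (SE 0.13, adjusted p = 5.20e-06). The shoot count fell to 28 without replicate 1 of Tsu with iron, 28 without replicate 3 of Kas with iron and 30 without replicate 1 of Kas with iron. In roots with iron 11 were called, 3 higher and 8 lower in Kas, where 3.42% of all were higher and 6.44% lower. The gene ndhG read 3.04, 3.19 and 3.12 in Kas and 4.13, 3.93 and 4.43 in Tsu, without overlap, a difference of -1.05 (SE 0.14, adjusted p = 6.16e-04). The gene ndhC was higher in Kas, at 0.84 (SE 0.15, adjusted p = 0.00434), and psbB, the photosystem II antenna gene, lower, at -1.29 (SE 0.30, adjusted p = 0.0166) (0.0938 without replicate 1 of Kas). Calls of ndhC and ndhG held without each array. Of these 6 root arrays 4 lay between the ecotypes. Without them the count was 20 and psbB had an adjusted p = 0.071, and the count was 2, 17 and 3 without replicate 1, 2 and 3 of Kas with iron.

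The 8 iron comparisons gave 1 to 26 calls each. In Kas roots 24 h without iron called 5 probe sets, 0 higher and 5 lower, where 0.624% of all probe sets were higher and 1.32% lower. At 48 h it was 21, 1 higher and 20 lower, where 2.84% were higher and 3.9% lower. Of the 77 plastid probe sets 3 were lower at 24 h and 14 at 48 h, with medians of -0.28 and -0.34 beside 0.03 and 0.04 over all. Both times are set against the same 3 arrays with iron. The gene ndhC, a subunit of the NDH complex, read 7.30, 6.95 and 7.37 with iron, 6.25, 6.24 and 6.30 at 24 h without it and 6.19, 6.26 and 6.24 at 48 h. The groups without iron lie below all arrays with iron, and the change was -0.94 (SE 0.15, adjusted p = 0.00883) and -0.97 (SE 0.15, adjusted p = 0.00198). The ribosomal gene rpl33 read 8.21, 8.02 and 8.02, 7.77, 7.58 and 7.50 and 7.28, 7.39 and 7.26 in the same order, and fell by 0.46 at 24 h and 0.77 at 48 h on the log2 scale (adjusted p = 0.0379 and 0.00102). A small subunit of photosystem II, psbI, changed by -0.85 and -1.005.

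Ribosomal genes made up 7 of the 14 plastid calls at 48 h in Kas roots, with rpl20 (-1.15), rps7 (-0.86) and rpl33 among them. The largest plastid change was that of petA, which read 6.58, 7.46 and 8.35 with iron and 5.47, 5.41 and 6.20 at 48 h, a change of -1.77 (SE 0.32, adjusted p = 0.0043). Its arrays with iron were widely spread, and all lay above those at 48 h. In mitochondria 2 probe sets fell: nad4, from 7.08, 7.11 and 8.36 to 6.32, 6.35 and 6.14, a change of -1.25 (SE 0.26, adjusted p = 0.00914), and the probe set that lists rps3 and rpl16, which changed by -1.51 (SE 0.21, adjusted p = 0.00102). The nuclear gene AR781 of the block fell at both times, with changes of -1.38 (SE 0.27, adjusted p = 0.0181) and -1.89 (SE 0.27, adjusted p = 0.00106). Of the 6 nuclear photosystem probe sets 0 were called at 24 h, where all 6 had negative changes (-0.94 to -0.35, median -0.56). At 48 h 1 was called lower and 0 higher, and the changes ran from -1.36 to 0.83 (median 0.08). The 25S control fell from 10.22 ± 0.47 with iron to 6.08 ± 0.85 at 48 h (SD, n = 3), and its part in the changes was not tested.

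These counts in Kas roots rest on few arrays. At 48 h 10 were called, 6 of them plastid, without replicate 3 at 48 h, and 7, of which 3 plastid, without replicate 3 with iron, where rpl20, ycf4 and psbI had adjusted p = 0.103, 0.117 and 0.0732. Calls of AR781, petA, nad4 and 245038_at held without each array in turn. Leaving out the arrays between the ecotypes leaves 1 array with iron, assumed to vary like the other groups. The count was then 9, with 4 plastid probe sets lower and a plastid median of -0.25. AR781, psbI and 245038_at kept their calls, while petA was at -0.88 (adjusted p = 0.0822), nad4 at -0.81 (adjusted p = 0.0664), rpl20 at -0.81 (adjusted p = 0.255) and ycf4 at -0.36 (adjusted p = 0.545). At 24 h the count was 0 without replicate 3 with iron or replicate 2 without iron, 1, 2 and 3 without replicate 1 with iron, replicate 3 without iron and replicate 1 without iron, and 10 without replicate 2 with iron. Without replicate 3 with iron ndhC had an adjusted p = 0.067 and AR781 0.116, and without replicate 1 245038_at had 0.24. Without the arrays between the ecotypes ndhC, AR781 and 245038_at kept their calls at 24 h, and rpl33 (adjusted p = 0.0622) and psbI (0.197) did not.

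**Figure D4:**
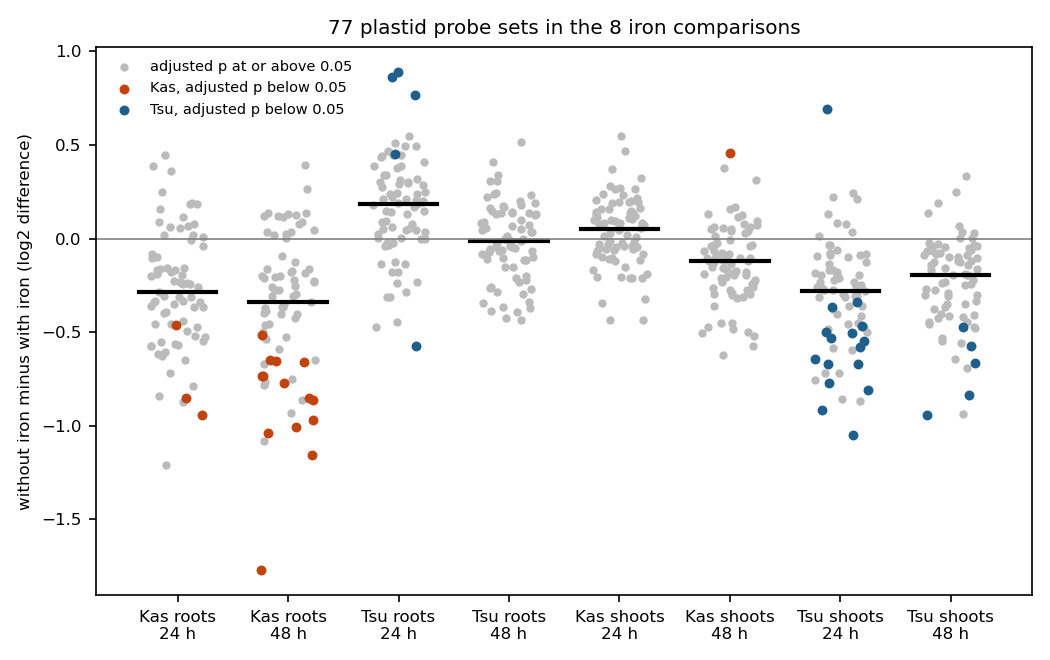
Change without iron (log2 difference from the group with iron) of the 77 plastid probe sets in the 8 iron comparisons. Grey points had an adjusted p of 0.05 or more, coloured points one below 0.05 (Kas orange, Tsu blue), and black lines are medians: 14 fell in Kas roots at 48 h and 15 in Tsu shoots at 24 h, and the medians there were -0.34 and -0.28.

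In Tsu roots most calls at 24 h were higher, as they were over all probe sets. At 24 h 7 probe sets were called, 6 higher and 1 lower, where 4.92% of all probe sets were higher and 2.05% lower. The plastid calls were ccsA, ndhC, ndhA and rpl2, all higher, and accD, lower, with a plastid median of 0.18 beside -0.03 over all. For ndhC the values were 6.51, 6.38 and 6.21 with iron and 7.38, 7.19 and 7.13 without, with no overlap and a rise of 0.86 (SE 0.15, adjusted p = 0.00278). For ccsA they were 8.11, 7.09 and 8.12 and 8.61, 8.72 and 8.66, also apart, with a rise of 0.89 (SE 0.24, adjusted p = 0.0314). The mitochondrial complex I gene nad6 rose by 0.55 (SE 0.14, adjusted p = 0.0233). At 48 h 1 was called, 0 higher and 1 lower, where 0.985% were higher and 0.633% lower: 245036_at, at -1.29 (SE 0.23, adjusted p = 0.00882). No plastid gene was called there, and 15 probe sets of the block were called once the arrays between the ecotypes were left out.

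All 3 Tsu root arrays at 24 h without iron lay between the ecotypes, as did 2 of the 3 with iron. Kas roots with iron read 7.20 ± 0.23 for ndhC and 8.68 ± 0.18 for ccsA (mean ± SD, n = 3), above Tsu roots with iron (6.37 ± 0.15 and 7.77 ± 0.59). The Tsu changes of ndhC and ccsA at 24 h ran toward the Kas level. That of nad6 ran away from it, since Kas roots with iron read lower than Tsu roots (-0.52 (SE 0.14, adjusted p = 0.0257)). These genes were picked from the calls, and iron and ecotype cannot be told apart in the 24 h comparison. With the index as a covariate, its slope fitted within groups, 2 calls were left. Without single arrays the count was 1 (replicate 2 with iron, replicate 1 or 2 without iron) or 2 (replicate 1 with iron, replicate 3 without iron). At 48 h it was 0 without replicate 1 at 48 h and 2 without replicate 2 or 3 at 48 h or replicate 3 with iron. The call of ndhC at 24 h held without each array, while ccsA had an adjusted p = 0.136 without replicate 2 with iron and nad6 0.101 without replicate 1 of the group without iron.

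Tsu shoots at 24 h had the most calls of the 8 iron comparisons, both in the block (17.3%) and over all probe sets (16.1%). There 26 probe sets were called, 3 higher and 23 lower, where 8.29% of all probe sets were higher and 7.83% lower. Plastid genes gave 1 higher and 15 lower of 77, with a median of -0.28 beside -0.02 over all. Of the 46 photosynthesis probe sets 12 were lower and 1, ccsA, higher, and of the 25 for transcription and translation 1 was lower. The gene ndhK, of the NDH complex, read 9.39, 9.42 and 9.35 with iron and 8.66, 8.78 and 8.30 without, with no overlap and a change of -0.81 (SE 0.16, adjusted p = 0.00144). For atpI, an ATP synthase subunit, the values were 5.11, 5.28 and 5.84 and 4.92, 4.23 and 3.93, and the change was -1.05 (SE 0.27, adjusted p = 0.00895). For psbB they were 10.23, 10.14 and 10.21 and 9.55, 9.81 and 8.48, and the change was -0.91 (SE 0.23, adjusted p = 0.0088). Replicate 3 without iron was the lowest array for both genes, and the ranges do not overlap.

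In Tsu shoots at 24 h 2 mitochondrial genes fell, cox2 with a change of -0.92 (SE 0.19, adjusted p = 0.00172) and ccb452 with -0.81 (SE 0.16, adjusted p = 9.78e-04). The ribosomal gene rps4 changed by -0.67 (SE 0.13, adjusted p = 0.00111), and ccsA rose, from 10.45, 10.55 and 10.59 to 11.27, 11.25 and 11.15, by 0.69 (SE 0.16, adjusted p = 0.005). The genes cox2, ccb452, rps4 and ccsA were also among those that set the ecotypes apart in shoots, and here each changed in the direction of Kas. They were picked from the calls, so their direction is no test of a cause. In the plastid set 68 of 77 probe sets had negative changes, and 54 of 77 were positive in Kas minus Tsu shoots with iron (median 0.16). All 3 arrays of the group lay between the ecotypes (0.540 ± 0.053). With the index as a covariate 0 of the 26 calls were left. That fit takes the slope of the index from its spread within groups (SD 0.016 with iron and 0.053 without in Tsu). The means of the compared groups lay much wider apart, at 0.031 and 0.540. The loss of calls therefore cannot decide between iron and ecotype. Iron and ecotype cannot be told apart in this comparison. The count was 14, with 5 plastid probe sets lower, without replicate 3 with iron. It was also 14, with 4 plastid probe sets lower, without replicate 3 of the group without iron, and atpI then had an adjusted p = 0.0634.

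At 48 h in Tsu shoots 7 were called, 1 higher and 6 lower, where 2.45% of all probe sets were higher and 1.89% lower. No array of the comparison lay between the ecotypes, but the mean index of the 48 h group is fixed by the way the index was built. The 5 plastid genes were psbT, ndhB, ndhK, rpl22 and rps3, all lower, with a plastid median of -0.20 beside 0.00. For ndhB the values were 2.94, 3.12 and 3.50 with iron and 2.17, 2.47 and 2.42 at 48 h, with no overlap, and the change was -0.83 (SE 0.14, adjusted p = 0.00207). Its 24 h values were 2.72, 2.93 and 2.51, a change of -0.47 (SE 0.14, adjusted p = 0.0284) against the same arrays with iron. The probe set is dim, and in Tsu roots with iron it read 2.50, 2.21 and 2.50. For ndhK the 48 h values were 8.52, 9.03 and 8.61 and the change -0.67 (SE 0.16, adjusted p = 0.0248). The small photosystem II subunit psbT read 7.58, 7.49 and 7.62 with iron and 6.61, 6.48 and 6.76 at 48 h, a change of -0.94 (SE 0.21, adjusted p = 0.0163). Calls of ndhB and 245038_at held without each array, while ndhK (adjusted p = 0.131) and rpl22 (0.2) missed the threshold without replicate 1 at 48 h, and psbT (0.0752) without replicate 2 at 48 h. Replicate 3 at 48 h, which had the high 25S and plastid values given above, decided the count: without it 26 were called, 19 of them plastid and lower, with a plastid median of -0.33. The count was 3 or 4 without any other single array of the comparison (replicate 1 at 48 h, or replicate 2 at 48 h and replicates 1, 2 and 3 with iron).

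Kas shoots had few calls, 0.667% of the block at 24 h and 2.0% at 48 h, beside 1.86% and 4.11% over all probe sets. At 24 h 1 probe set was called, 1 higher and 0 lower, where 1.06% of all probe sets were higher and 0.805% lower, and it was 245035_at. At 48 h 3 were called, 2 higher and 1 lower, where 2.2% were higher and 1.91% lower. The plastid medians were 0.05 and -0.12 beside -0.03 and -0.03 over all. The ribosomal gene rps14 was the single plastid call, with 3.09, 2.91 and 2.90 with iron and 3.34, 3.68 and 3.25 at 48 h and a rise of 0.46 (SE 0.12, adjusted p = 0.0408), and the call was lost when any of 5 of the 6 arrays was left out (adjusted p = 0.225 without replicate 2 at 48 h). The 5 plastid genes that fell in Tsu shoots at 48 h gave 0.03 for ndhB, 0.04 for psbT, -0.10 for rps3, -0.13 for rpl22 and -0.51 for ndhK in Kas, none of them called (adjusted p = 0.0904 for ndhK). Of these 5, ndhB alone differed between the ecotypes in the interaction test, and psbT missed it (0.98, adjusted p = 0.0766). The 48 h count was 1 without replicate 3 with iron or replicate 1 or 2 at 48 h, and the 24 h count was 2 without replicate 1 with iron.

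**Figure D5:**
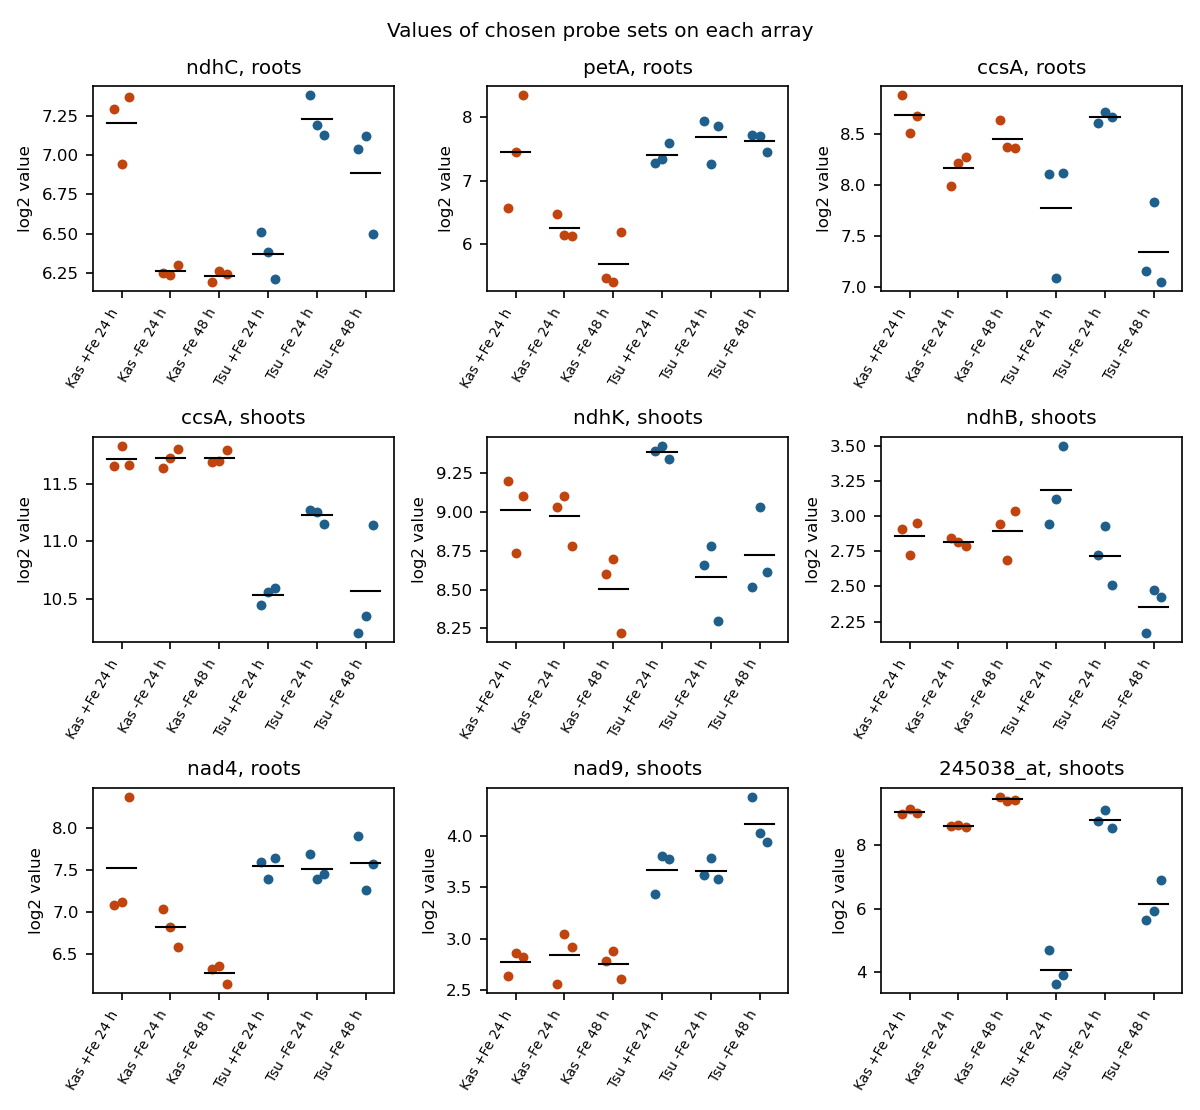
Log2 value on each array of 7 organelle genes (ccsA in both tissues) and the unannotated 245038_at, each in the tissue named above its panel. Points are arrays (3 per group), black lines group means, Kas orange and Tsu blue. In roots ndhC read 6.19 to 6.30 without iron in Kas and rose in Tsu at 24 h, and in shoots 245038_at at 24 h without iron in Tsu read close to Kas.

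The difference between the ecotypes in their response was tested as an interaction, with the Tsu change subtracted from that of Kas. In roots 10 probe sets were called at 24 h, 0 higher and 10 lower in Kas, where 1.55% of all were higher and 3.49% lower. Each root group compared at 24 h held arrays that lay between the ecotypes, and all 3 of Tsu without iron did. The groups with iron, which held such arrays in both ecotypes, also enter the 48 h test. At 48 h 15 were called, 2 higher and 13 lower, where 3.33% were higher and 4.61% lower. The gene ndhC, which fell in Kas and rose in Tsu at 24 h, had -1.81 (SE 0.22, adjusted p = 9.39e-05) at 24 h and -1.49 (SE 0.22, adjusted p = 0.0017) at 48 h, and both calls held without each array. For petA the 48 h interaction was -1.99 (SE 0.45, adjusted p = 0.0155), which held without each single array and was -1.17 (adjusted p = 0.0605) without the arrays between the ecotypes. In shoots 10 were called at 24 h, 9 higher and 1 lower, where 5.07% were higher and 6.16% lower, and 4 at 48 h, 2 higher and 2 lower, where 1.95% were higher and 2.0% lower. For ndhB the 48 h shoot interaction was 0.86 (SE 0.20, adjusted p = 0.0208), with an adjusted p = 0.058 without replicate 1 of Tsu at 48 h. Interaction counts in roots at 24 h moved to 3 without replicate 3 and 16 without replicate 2 of Kas with iron, to 6 without its replicate 1, to 4 without replicate 1 or 2 of Tsu without iron, and to 6 and 5 without replicates 1 and 2 of Kas without iron. At 48 h they were 6 without replicate 3 of Kas with iron, 7 without replicate 1 of Tsu at 48 h and 8 without replicate 3 of Kas at 48 h. In shoots at 24 h the count was 4 without replicate 3 of Tsu with iron or without, 6 without replicate 1 of Tsu with iron, 5 and 6 without replicates 2 and 3 of Kas with iron, and 6 and 5 without replicates 2 and 3 of Kas without iron. At 48 h in shoots it was 2 without replicate 1 of Kas at 48 h.

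The unannotated probe sets 245038_at and 245035_at had the largest shoot differences between the ecotypes. The probe set 245038_at read 8.98, 9.15 and 9.02 in Kas shoots and 4.68, 3.61 and 3.90 in Tsu shoots with iron, without overlap, a difference of 4.99 (SE 0.25, adjusted p = 5.76e-12). In Tsu shoots at 24 h without iron it read 8.79, 9.12 and 8.54, a rise of 4.75 (SE 0.25, adjusted p = 4.09e-11), on the 3 arrays whose index lay between the ecotypes. At 48 h it read 5.64, 5.93 and 6.89 in Tsu and rose by 2.09 (SE 0.25, adjusted p = 6.82e-05), and the difference between the ecotypes was 3.30 (SE 0.25, adjusted p = 2.80e-09). In Kas roots the same probe set changed by -1.42 (SE 0.35, adjusted p = 0.0435) at 24 h and -1.96 (SE 0.35, adjusted p = 0.00372) at 48 h. The probe set 245035_at rose in Kas shoots, from 6.84, 7.34 and 7.13 with iron to 8.62, 8.51 and 7.98 at 24 h and 8.99, 8.51 and 8.29 at 48 h. The groups do not overlap, and the rises were 1.27 (SE 0.23, adjusted p = 0.00538) and 1.49 (SE 0.23, adjusted p = 6.52e-04), with each call held whichever array was left out. In Tsu shoots it read 5.06, 5.09 and 5.13 with iron and 6.16, 7.11 and 6.52 at 24 h, a rise of 1.502 (SE 0.23, adjusted p = 8.26e-05). That rise too was on the 3 arrays whose index lay between the ecotypes. Its sign reversed with the index as a covariate, but that slope was fitted within groups and carried across a wider gap between them. The reversal therefore cannot decide between iron and ecotype. The interaction did not pass the test at 24 h (-0.24, adjusted p = 0.733). At 48 h it did (1.42, SE 0.32, adjusted p = 0.0175), though some single arrays left out ended that call.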

How the data were processed

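Roots and shoots of 2 ecotypes under 3 iron treatments were measured on 36 1-colour Affymetrix arrays, and groups follow the sample titles. The values deposited are on a log2 scale with 1 value per probe set, as their range shows (1.31 to 13.47, array medians 4.91 to 5.14). Not given in the sources used here: background correction, summary method, normalization, software and the priming of the labelled RNA. The values were not normalized again, and no detection calls were used, so the number of arrays limits the precision. A probe set was named from GEO's platform annotation and RefSeq gene names (assembly TAIR 10.1), 105 of 150 listed a gene, and no coordinates or sequences were used. Of the 150 identifiers, 21 end in _s_at, a suffix for probe sets that match several transcripts. Each of the 18 comparisons was a contrast in a limma 3.58.1 fit (R 4.3.3, lmFit and eBayes, a mean for each group, 18 arrays per tissue, or 36 for shoots against roots). P-values were adjusted by Benjamini-Hochberg over 22746 probe sets, the 64 controls left out, and called below 0.05. Alternatives were all 36 arrays in 1 fit, only the arrays compared, quantile normalization, a replicate block and the ecotype index as a covariate. Another dropped dim probe sets, here those whose mean over the fitted arrays lay below the median of all. Each array was also left out in turn. A setting without the arrays between the ecotypes was added after the data were seen. The script was tested on simulated data. In each comparison up to 6 called rises and 6 called falls of single-gene probe sets were described in full or by group, and probe sets without a gene were named where they were among the 2 largest. Other members were named for contrast. Members, gene lists and tests were chosen with earlier results of these data known.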

Additional observations from a re-analysis of the deposited data

Results flagged for a closer look

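The results given here are those in which the change without iron differed between Kas and Tsu by the limma interaction test (Benjamini-Hochberg adjustment over all probe sets), and each value is the log2 change of Kas less that of Tsu. In roots at 24 h 10 probe sets of the block differed. Among them were ndhC at -1.81, AR781 at -1.52, ccsA at -1.41, ndhA at -1.34, rps19 at -1.295 and matK at -1.28, with the unannotated 245038_at at -2.38. Except for ndhC and 245038_at, each of these 7 lost its call when some single array was left out. Every root group compared at 24 h held arrays between the ecotypes, with all 3 of Tsu without iron among them. In roots at 48 h 15 differed. They included petA at -1.99, AR781 at -1.56, ndhC at -1.49, nad4 at -1.28, ycf4 at -1.27, ndhA at -1.26, AT2G26360 at 0.82 and 245036_at at 1.35, and of these 8 petA and ndhC kept their calls whichever array was left out. In shoots at 24 h 10 differed, with 245038_at at -5.19, rpoC2 at 0.95, clpP at 0.92, rps4 at 0.87, ndhK at 0.77, petG at 0.72 and psaJ at 0.71. All 3 Tsu arrays without iron in that comparison lay between the ecotypes, and 0 differed once the ecotype index was a covariate. The slope of the index was fitted within groups, where it varied little in shoots, so that count cannot decide between iron and ecotype. In shoots at 48 h 4 differed, ndhB at 0.86, 245035_at at 1.42, 245038_at at -1.68 and 244904_at at -0.91, of which 245038_at kept its call whichever array was left out. No group had enough arrays for a test of single outlying values.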

How the results depend on the processing

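Counts are probe sets of the block called at an adjusted p below 0.05 by limma. With all 36 arrays in 1 fit they were 11 and 33 in Kas roots at 24 h and 48 h without iron (5 and 21 as reported), 11 and 5 in Tsu roots (7 and 1), 1 in Kas shoots at 48 h (3), 4 in Tsu shoots at 48 h (7), 17 for Kas against Tsu roots with iron (11), and for the interactions 18 and 25 in roots (10 and 15) and 4 and 2 in shoots (10 and 4). With only the arrays compared they were 0 and 12 in Kas roots, 2 and 0 in Tsu roots, 6 in Kas shoots at 48 h, 2 in Tsu shoots at 48 h, 0 for Kas against Tsu roots with iron, 35 for Kas against Tsu shoots at 48 h (54), and 5 and 8 for the root interactions. Quantile normalization gave 3 in Kas roots at 24 h. Without dim probe sets, here those whose mean lay below the median of all, Tsu shoots at 48 h gave 12 and Kas against Tsu roots with iron 5. With the ecotype index as a covariate Tsu roots at 24 h gave 2, Tsu shoots 0 at 24 h (26) and 3 at 48 h, and the interactions 7 in roots at 48 h, 0 in shoots at 24 h and 2 at 48 h, and the change of 245035_at in Tsu shoots at 24 h reversed from 1.502 to -0.587. The slope of the index was fitted within groups, where it varied little in shoots, so this setting cannot separate iron from ecotype. Without the arrays between the ecotypes, a setting added after the data were seen, Kas roots at 48 h gave 9, Tsu roots at 48 h 15 and Kas against Tsu roots with iron 20, and 4 comparisons with Tsu at 24 h without iron could not be fitted. The replicate block gave 2 in Kas roots at 24 h and moved no other count by over 1.5 times. Replicate numbers did not pair the arrays, with a mean correlation of deviations of -0.0043 in roots and -0.0191 in shoots for arrays of the same number. The cause of these shifts was not tested. Leaving out each array in turn, counts ran from 0 to 10 and 7 to 21 in Kas roots (24 h, 48 h), 1 to 7 and 0 to 2 in Tsu roots, 1 to 2 and 1 to 3 in Kas shoots, and 14 to 24 and 3 to 26 in Tsu shoots. For Kas against Tsu they ran from 2 to 17 with iron and 36 to 50 at 48 h in roots, and 28 to 38 and 36 to 63 in shoots. For the interactions they ran from 3 to 16 and 6 to 16 in roots, and 4 to 11 and 2 to 6 in shoots. For shoots against roots they ran from 97 to 103 in Kas and 98 to 106 in Tsu. Of the single differences named by the rule, quantile normalization ended 8 of 142 calls, the replicate block 9 of 142, the arrays compared alone 42 of 142, the fit of all 36 arrays 13 of the 116 it applies to, the index 40 of 93 and leaving out the arrays between the ecotypes 18 of 57. Among 30 members below 3 in every group, signal over background limits what can be called.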
